A study of Homo sapiens with 12 samples.

Results

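HCT116 is a human colon carcinoma line, and its 4 arrays compare cells given a treatment labelled Combination (2 arrays) with cells given 5-Aza-CdR alone (2 arrays). 5-Aza-CdR is decitabine, a deoxycytidine analogue that is built into DNA and traps DNA methyltransferases, so that DNA methylation is lost over successive divisions. What the combination adds to 5-Aza-CdR is not named in the labels used here, nor are dose, exposure time or an untreated sample. The whole series has 12 arrays, with the same 2 treatments and 2 replicates in the leukaemia line HL60 and the liver carcinoma line SNU398. RNA was measured on Illumina bead arrays as biotinylated cRNA, and each value is a deposited log2 level for a gene symbol. The labels do not say whether the 2 replicates of a group are separate cultures, and the p-values below reflect only the spread between these arrays, which may be technical.

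The genes described are the 12349 symbols with a value above 0 on all 4 HCT116 arrays, of 17290 symbols listed for HCT116 and 20545 in the series. A listed value of exactly 0 was read as not measured. A further 4932 symbols had a value on both replicate 1 arrays alone and are given apart. Combination was set against 5-Aza-CdR within each replicate number, so that pair 1 is combination 1 minus 5-Aza-CdR 1 and pair 2 is combination 2 minus 5-Aza-CdR 2. A gene was called when the mean of its 2 pair differences passed a Benjamini-Hochberg adjusted p of 0.05 in limma's moderated test over all 12349 genes. That test takes most of a gene's spread from all genes together (43.66 prior degrees of freedom beside 1 residual). The SE printed with a gene is this moderated value, with a median of 0.22 over genes. Neither it nor the p-value measures how closely that gene's own 2 pairs match, so the pair differences should be read beside them.

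Cells detect viral nucleic acid through cytosolic sensors such as MDA5 (gene IFIH1), which lead to the secretion of interferons. Type I and type III interferons activate a transcription factor complex that contains IRF9 and binds the interferon-stimulated response element (ISRE) in promoters and turns on a large set of antiviral effector genes. Loss of DNA methylation by decitabine is known to raise transcripts of endogenous retroviruses in colon cancer cells, including double-stranded RNA, and to set off this programme without a virus.

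Of the 12349 genes, 21 were called higher in the combination arrays than in the 5-Aza-CdR arrays (0.17% of genes tested) and 4 were called lower (0.0324%). Together these were 25 genes (0.202%). The largest rise was that of IFITM3, an antiviral membrane protein, and among the 4 that fell were a small nuclear RNA, a mitochondrial enzyme and a kinetochore subunit. Of the 44 interferon-induced effectors measured on all 4 arrays, 10 were called higher and 0 lower, and 38 had a mean difference above 0. Their median difference was 0.41 on the log2 scale (0.30 in pair 1 and 0.56 in pair 2), beside a median of 0.03 over all genes, of which 6695 of 12349 lay above 0. At least 2-fold higher levels in both pairs were seen for 13 genes (0.105% of genes), 9 of them from this effector list, and at least 2-fold lower levels in both pairs for 0 genes. In bulk RNA, a change in the share of cells that express a gene and a change in RNA per cell cannot be told apart.

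The calls rest on the pairing by replicate number. Without the replicate block, limma called 0 genes in either direction (0 genes at an unadjusted p under 0.05 with the 4 HCT116 arrays and 4 genes with 12 arrays), whereas the paired fit had 1033 genes at an unadjusted p under 0.05. After quantile normalization 0 genes were called, with a smallest adjusted p of 0.0795 in limma's paired fit. With the block kept in each of the 3 lines over 12 arrays 0 genes were called, with a smallest adjusted p of 0.0632. Leaving out either HCT116 pair needs that same fit over 3 lines, which called 0 genes with both pairs kept. It therefore cannot show whether the calls depend on both replicates. With genes of mean log2 under 9 left out only IFITM3 was called.

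**Figure D1:**
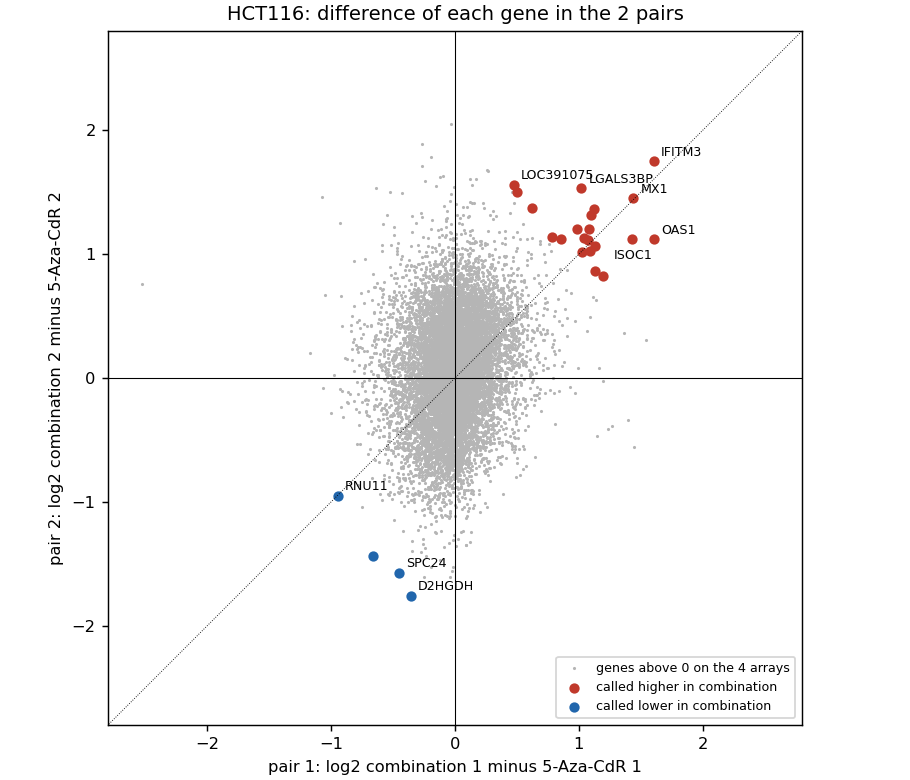
Each point is 1 of the 12349 genes; the x axis gives pair 1 and the y axis pair 2, both as log2 combination minus 5-Aza-CdR. The 21 genes called higher (red) lie at the upper right, IFITM3 farthest out at 1.60 and 1.75, and the 4 called lower (blue) at the lower left; the dotted line marks equal differences.

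The replicates stood apart more than the treatments did. Over the 12349 genes the array medians were 9.08 and 8.05 for combination 1 and 2, and 9.10 and 8.04 for 5-Aza-CdR 1 and 2. The low ends matched less well in replicate 2. The 5th percentiles were 8.07 and 7.01 for combination 1 and 2, and 8.08 and 6.70 for 5-Aza-CdR 1 and 2. Pair 2 differences of genes near the low end may include this offset. Spearman's rho across genes was 0.980 between combination 1 and 5-Aza-CdR 1 and 0.923 between combination 2 and 5-Aza-CdR 2, but 0.766 between the combination arrays and 0.675 between the 5-Aza-CdR arrays. The pair differences had a standard deviation over genes of 0.239 in pair 1 and 0.434 in pair 2, and their signs matched for 6973 genes (56.5%). Across genes, which are not independent replicates, the pair differences correlated at r = 0.179. The gap between replicates, taken for each gene as the mean of its 2 replicate 1 levels minus the mean of its 2 replicate 2 levels, had a median of 1.07 and correlated across genes at r = 0.318 with pair 1 and r = 0.503 with pair 2. Because each gap shares its arrays with the differences, these values are descriptions, and the part of the gap in any result was not tested beyond the alternative in which its trend is removed.

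**Figure D2:**
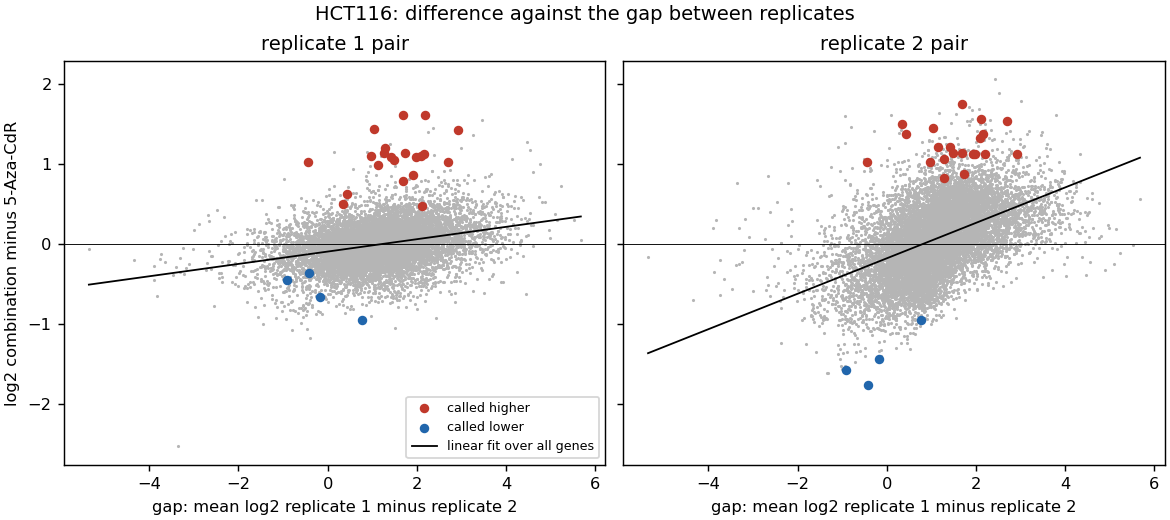
Each point is a gene; the x axis gives the gap (mean log2 of replicate 1 minus that of replicate 2) and the y axis the log2 difference of combination minus 5-Aza-CdR, for pair 1 (left) and pair 2 (right). The fitted line rises by 0.0771 per unit of gap in pair 1 and by 0.2211 in pair 2, and the genes called higher lie above it in both panels.

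The labelled cell type was checked first. Of 13 colon epithelial markers, 8 had a value on all 4 arrays. KRT19, an epithelial keratin, had log2 levels of 13.14 and 12.14 in the combination arrays, against 12.85 and 11.24 in the 5-Aza-CdR arrays. EPCAM, an epithelial adhesion molecule, had 12.16 and 8.57 in the combination arrays, against 11.50 and 8.16 in the 5-Aza-CdR arrays. The intestinal transcription factor CDX2 had 8.602 and 8.48 in the combination arrays, against 8.495 and 8.57 in the 5-Aza-CdR arrays. These levels lay below the array medians in replicate 1 and above them in replicate 2. LGALS4, a galectin of differentiated gut epithelium, lay below the array medians, at 7.9998 and 7.17 in the combination arrays, against 7.98 and 6.38 in the 5-Aza-CdR arrays. KRT20, a keratin of differentiated gut epithelium, also lay below them, with 8.87 and 7.12 in the combination arrays, against 8.58 and 6.88 in the 5-Aza-CdR arrays. Of the 11 markers listed for HCT116, 4 and 5 lay above the array median in combination 1 and 2, and likewise 4 and 5 in 5-Aza-CdR 1 and 2. Of 7 myeloid markers only PRTN3 was listed for HCT116, with 8.07 and 7.23 in the combination arrays, against 8.21 and 7.11 in the 5-Aza-CdR arrays, below the median of each array. Of 7 hepatocyte markers 2 were listed; ALB, serum albumin, had 8.39 and 8.05 in the combination arrays, against 8.55 and 8.12 in the 5-Aza-CdR arrays, and exceeded the array median in 5-Aza-CdR 2 alone. Of 7 stromal and endothelial markers all were listed, and 5 of them were at 0 on both replicate 2 arrays. VWF, an endothelial clotting factor, had 8.30 and 8.64 in the combination arrays, against 8.36 and 9.06 in the 5-Aza-CdR arrays, above the array median on both replicate 2 arrays.

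The promoters of called genes are shown here because 8 of the 14 higher genes with an entry in the promoter table (RefSeq, GRCh38.p14) hold an ISRE core. The motif searched was GAAA, any 2 bases and GAAA again, or its reverse complement with TTTC in place of GAAA, within 250 bases before to 50 bases after the annotated start, and overlapping matches were counted. It was found in 996 of all 27305 promoters of that length (3.65%). In 7 genes the match lay upstream of the start, and the 170 bases before the start are printed 5′ to 3′ along the gene's strand, with each match in capitals.
IFITM3: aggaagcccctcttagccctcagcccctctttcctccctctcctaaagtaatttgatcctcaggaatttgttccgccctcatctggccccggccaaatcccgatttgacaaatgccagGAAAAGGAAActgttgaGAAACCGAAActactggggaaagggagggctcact
LGALS3BP: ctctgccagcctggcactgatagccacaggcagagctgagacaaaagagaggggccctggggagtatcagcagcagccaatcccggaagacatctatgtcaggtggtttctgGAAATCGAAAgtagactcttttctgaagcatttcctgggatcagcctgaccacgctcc
SAMD9: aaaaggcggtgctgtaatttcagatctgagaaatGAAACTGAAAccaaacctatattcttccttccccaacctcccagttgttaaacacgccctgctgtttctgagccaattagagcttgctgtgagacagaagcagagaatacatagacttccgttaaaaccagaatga
IFI6: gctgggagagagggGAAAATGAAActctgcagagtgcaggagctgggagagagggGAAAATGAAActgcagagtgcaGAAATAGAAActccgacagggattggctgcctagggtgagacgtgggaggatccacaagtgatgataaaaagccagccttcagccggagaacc
IFIH1: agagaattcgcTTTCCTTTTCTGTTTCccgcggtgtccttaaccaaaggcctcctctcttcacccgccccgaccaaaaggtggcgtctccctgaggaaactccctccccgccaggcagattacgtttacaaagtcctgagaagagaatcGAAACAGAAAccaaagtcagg
TAPBP: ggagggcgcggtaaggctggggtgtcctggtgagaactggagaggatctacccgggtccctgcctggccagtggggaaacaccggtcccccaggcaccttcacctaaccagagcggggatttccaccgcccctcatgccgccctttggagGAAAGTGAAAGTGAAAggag
IFI27: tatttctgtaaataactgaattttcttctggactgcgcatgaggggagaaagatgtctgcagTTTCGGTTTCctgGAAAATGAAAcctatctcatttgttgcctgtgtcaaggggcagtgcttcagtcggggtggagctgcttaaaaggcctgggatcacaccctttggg
These windows are chr11:320861-321030 (IFITM3), chr17:78979924-78980093 (LGALS3BP), chr7:93117980-93118149 (SAMD9), chr1:27672193-27672362 (IFI6), chr2:162318685-162318854 (IFIH1) and chr6:33314079-33314248 (TAPBP), all on the minus strand, and chr14:94110566-94110735 (IFI27) on the plus strand.

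Counted from the start, where the base before it is -1, the matches begin at -52 and -35 in IFITM3, at -58 in LGALS3BP, at -136 in SAMD9 and at -156, -115 and -93 in IFI6. IFIH1 has 2 overlapping matches that begin at -159 and -153 and another at -21. TAPBP has 2 overlapping matches at -20 and -14, which together read as 3 GAAA repeats, and IFI27 has matches at -108 and -95. In MX1 the match lies 12 bases into the transcript and is not printed. OAS1, ISOC1, BLOC1S1, NFKB1, CNST (C1ORF71 in the file) and TENT5A (FAM46A in the file) have no match in this window. A second motif, the gamma-activated site core TTCNNNGAA, was found in 2 of the 14 promoters, those of OAS1 and IFI27, and in 7.88% of all promoters. A match describes letters and is no evidence of binding, and of the 21 higher genes 7 had no entry in the table.

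The IFITM proteins sit in cell and endosomal membranes and hinder the fusion of enveloped viruses. IFITM3 had log2 levels of 15.05 and 13.44 in the combination arrays, against 13.44 and 11.69 in the 5-Aza-CdR arrays. Each combination array was above the 5-Aza-CdR array of its own replicate, by 1.60 and 1.75, although combination 2 lay level with 5-Aza-CdR 1. The mean difference was 1.68 ± 0.22 on the log2 scale (SE, n = 2 pairs), a 3.20-fold rise with an adjusted p of 1.63e-05 in limma, the smallest of all genes. IFITM2 had 14.64 and 13.63 in the combination arrays, against 13.55 and 12.61 in the 5-Aza-CdR arrays. Its groups did not overlap, and it rose by 1.06 ± 0.22 (SE, n = 2 pairs; limma adjusted p = 0.0164). IFITM1 had 11.31 and 10.61 in the combination arrays, against 10.38 and 9.93 in the 5-Aza-CdR arrays, a difference of 0.81 that was not called (limma adjusted p = 0.151). The 3 genes lie together on chromosome 11 and are close in sequence, so that reads of 1 probe may include its neighbours; probe specificity was not checked here.

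MX1, a dynamin-like GTPase that traps viral nucleoproteins, had 12.12 and 11.08 in the combination arrays, against 10.68 and 9.63 in the 5-Aza-CdR arrays. Both combination arrays lay above both 5-Aza-CdR arrays, and the pairs differed by 1.44 and 1.45. The rise was 2.72-fold (log2 1.44 ± 0.22, SE, n = 2 pairs; limma adjusted p = 0.000283). Its chromosome 21 neighbour MX2 had 9.46 and 7.98 in the combination arrays, against 8.37 and 7.48 in the 5-Aza-CdR arrays. Its difference of 0.79 was not called (limma adjusted p = 0.167).

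The OAS enzymes make 2′-5′ oligoadenylates that activate RNase L, which degrades RNA. OAS1 had 10.58 and 8.14 in the combination arrays, against 8.97 and 7.02 in the 5-Aza-CdR arrays, with pair differences of 1.61 and 1.12. It rose 2.57-fold (log2 1.36 ± 0.22, SE, n = 2 pairs; limma adjusted p = 0.000876), while combination 2 stayed below 5-Aza-CdR 1. OAS2 had 8.31 and 8.13 in the combination arrays, against 8.55 and 7.82 in the 5-Aza-CdR arrays, a difference of 0.03. OAS3 had 10.57 and 8.29 in the combination arrays, against 10.60 and 8.05 in the 5-Aza-CdR arrays, a difference of 0.10. Neither OAS2 nor OAS3 was called (limma adjusted p = 0.981 and 0.923), and both had pair differences of opposite sign. OASL, a relative that lacks the synthetase activity, had 9.97 and 8.53 in the combination arrays, against 8.93 and 7.39 in the 5-Aza-CdR arrays. It rose by 1.09 ± 0.22 (SE, n = 2 pairs; limma adjusted p = 0.0113).

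The remaining effectors called higher were LGALS3BP, SAMD9, LY6E, IFI6 and IFI27. LGALS3BP, a secreted glycoprotein that binds galectins, had 12.45 and 10.02 in the combination arrays, against 11.43 and 8.49 in the 5-Aza-CdR arrays, and rose by 1.28 ± 0.22 (SE, n = 2 pairs; limma adjusted p = 0.00203). SAMD9, a cytosolic restriction factor of poxviruses, had 9.78 and 7.73 in the combination arrays, against 8.66 and 6.37 in the 5-Aza-CdR arrays, and rose by 1.24. Its 6.37 lay below the 5th percentile of 5-Aza-CdR 2 (6.70), and its difference was 1.10 after quantile normalization. LY6E, a membrane-anchored protein that restricts coronavirus entry, had 13.81 and 12.46 in the combination arrays, against 12.73 and 11.26 in the 5-Aza-CdR arrays, and rose by 1.14. In each of these genes the rise was seen within both replicates, and the combination array of replicate 2 lay below the 5-Aza-CdR array of replicate 1. IFI6, a small interferon-induced membrane protein, had 13.47 and 11.51 in the combination arrays, against 12.39 and 10.39 in the 5-Aza-CdR arrays, and rose by 1.10. IFI27, a related interferon-induced protein, had 13.38 and 11.59 in the combination arrays, against 12.52 and 10.46 in the 5-Aza-CdR arrays, and rose by 0.99 (limma adjusted p = 0.0334).

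Several well-known effectors were not called. IFIT1, which binds viral RNA that lacks a cap methyl group, had 10.74 and 9.67 in the combination arrays, against 10.06 and 8.56 in the 5-Aza-CdR arrays, a difference of 0.90 (limma adjusted p = 0.0815). IFIT3 had 8.61 and 7.87 in the combination arrays, against 8.02 and 6.92 in the 5-Aza-CdR arrays, a difference of 0.77. ISG15, a ubiquitin-like modifier, had 15.22 and 14.98 in the combination arrays, against 14.76 and 14.01 in the 5-Aza-CdR arrays, a difference of 0.72 (limma adjusted p = 0.27). ISG15 was among the brightest effectors under both treatments. BST2, which tethers budding virions, had the lowest difference of the list at -0.37, with 9.51 and 10.02 in the combination arrays, against 9.76 and 10.52 in the 5-Aza-CdR arrays. Of the 44 effectors 29 were above 0 in both pairs (30% of all genes were), and 2 were below 0 in both (26.4% of all genes were). Removing the trend with the gap from each pair, an alternative chosen after seeing the data, gave 46 genes called higher (0.372%) and 3 lower (0.0243%). Of the higher ones 13 were effectors, and the effector median was 0.40. This correction can itself create calls at extreme gaps. A gene with a gap of -5.35 and pair differences of -0.06 and -0.17 was then called higher at 0.85.

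**Figure D3:**
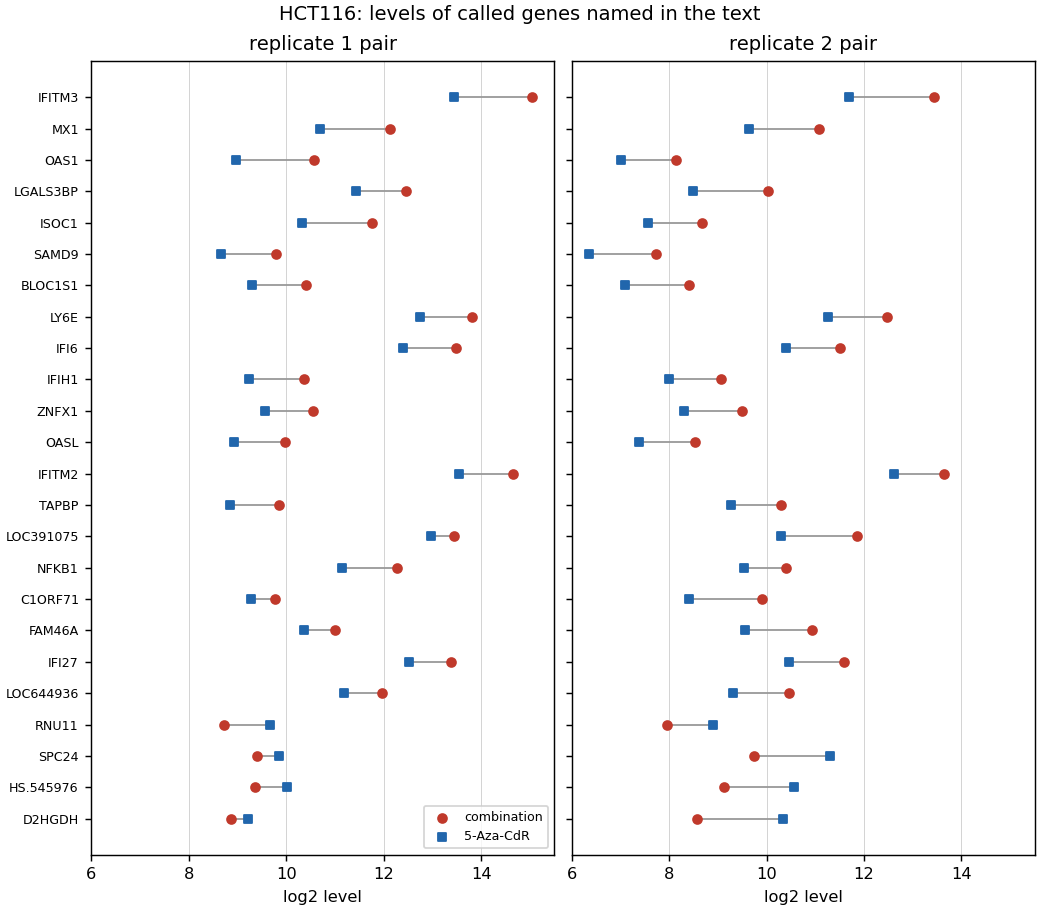
Log2 levels of 24 called genes, 1 row each, in the replicate 1 pair (left) and the replicate 2 pair (right), with combination as red circles and 5-Aza-CdR as blue squares. In all rows above RNU11 the red circle lies to the right of the blue square in both panels, and in the 4 rows from RNU11 downward to its left.

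Among 13 nucleic acid sensors and their adaptors, 1 was called higher and 0 lower, with a median difference of 0.08. It was IFIH1, the MDA5 sensor of long double-stranded RNA, with 10.36 and 9.06 in the combination arrays, against 9.24 and 7.997 in the 5-Aza-CdR arrays. Its pair differences of 1.13 and 1.06 were close, and its rise was 1.10 ± 0.22 (SE, n = 2 pairs; limma adjusted p = 0.0113). ZNFX1, a helicase described as a mitochondrial sensor of double-stranded RNA and on none of the lists, had 10.54 and 9.51 in the combination arrays, against 9.55 and 8.30 in the 5-Aza-CdR arrays, and rose by 1.09. The kinase TBK1, which relays sensor signals, differed by 0.37 and the related kinase IKBKE by -0.22, and neither was called.

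Interferons, receptors and signalling genes, of which 17 were measured on all 4 arrays, had a median difference of 0.07; no count of calls is given for this list. IRF7, which amplifies interferon transcription, had 11.43 and 10.28 in the combination arrays, against 10.29 and 9.65 in the 5-Aza-CdR arrays, a difference of 0.88 that was not called (limma adjusted p = 0.0859). IRF9, a DNA-binding subunit of the interferon-activated complex, differed by 0.51, with 0.72 in pair 1 and 0.30 in pair 2. TYK2, a kinase of the interferon receptor, differed by -0.50 and was not called (limma adjusted p = 0.55). The lambda interferon IFNL1, listed as IL29, was low on every array, with 8.28 and 7.003 in the combination arrays, against 8.35 and 6.71 in the 5-Aza-CdR arrays.

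Antigen presentation gave 1 call. Of 17 genes of MHC class I presentation, TAPBP alone was called higher and 0 were called lower, with a list median of 0.19 (0.00 in pair 1 and 0.53 in pair 2). TAPBP encodes tapasin, which bridges class I molecules to the peptide transporter. It had 9.86 and 10.29 in the combination arrays, against 8.83 and 9.27 in the 5-Aza-CdR arrays, and both combination arrays lay above both 5-Aza-CdR arrays. Its pair differences were 1.02 and 1.02, and it rose by 1.02 ± 0.22 (SE, n = 2 pairs; limma adjusted p = 0.0269). The transporter subunit TAP2 differed by 0.48 through pair 2 (-0.01 in pair 1, 0.98 in pair 2), as did the light chain B2M by 0.36 (0.11 and 0.62). Of 7 class II genes 0 were called, with a median of -0.06. CD74, the invariant chain, was the highest of them with 8.37 and 7.53 in the combination arrays, against 7.52 and 6.65 in the 5-Aza-CdR arrays, a difference of 0.87 that was not called (limma adjusted p = 0.089). All 4 CD74 levels lay below the median of their array. The 7.52 was the lowest value on 5-Aza-CdR 1 among the genes measured on all 4 arrays. The 6.65 lay below the 5th percentile of 5-Aza-CdR 2 (6.70). After quantile normalization the CD74 difference was 0.72.

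Of 18 NF-kappaB and inflammatory genes, 1 was called higher and 0 lower, with a median of 0.11 (-0.13 in pair 1, 0.39 in pair 2). NFKB1, the p105 precursor of the p50 subunit, had 12.27 and 10.40 in the combination arrays, against 11.14 and 9.53 in the 5-Aza-CdR arrays, and rose by 1.00 ± 0.22 (SE, n = 2 pairs; limma adjusted p = 0.0318). NFKBIA, the inhibitor IkappaB alpha and itself a target of NF-kappaB, had 13.81 and 12.81 in the combination arrays, against 12.91 and 12.09 in the 5-Aza-CdR arrays, a difference of 0.81 (limma adjusted p = 0.152). The chemokine CCL20 differed by 0.42 with pairs of opposite sign (-0.22 and 1.07). CXCL8, listed as IL8, differed by 0.42, with 0.03 in pair 1 and 0.81 in pair 2.

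Other genes called higher had no interferon role in the lists. ISOC1, a protein with an isochorismatase domain, had 11.75 and 8.68 in the combination arrays, against 10.33 and 7.56 in the 5-Aza-CdR arrays, and rose 2.42-fold (log2 1.27 ± 0.22, SE, n = 2 pairs; limma adjusted p = 0.00203). BLOC1S1, a subunit of a complex in the biogenesis of lysosome-related organelles, had 10.40 and 8.41 in the combination arrays, against 9.30 and 7.09 in the 5-Aza-CdR arrays, and rose by 1.21 (limma adjusted p = 0.00342). For both genes replicate 1 lay far above replicate 2, with gaps of 2.92 and 2.10, and both kept an adjusted p under 0.05 with the gap trend removed. CNST, a trans-Golgi protein that binds connexins, had 9.77 and 9.92 in the combination arrays, against 9.27 and 8.42 in the 5-Aza-CdR arrays. TENT5A, a noncanonical poly(A) polymerase, had 10.99 and 10.94 in the combination arrays, against 10.37 and 9.57 in the 5-Aza-CdR arrays. Both rose by 1.00 with groups that did not overlap and with most of the difference in pair 2 (1.50 and 1.37, beside 0.50 and 0.62 in pair 1). LOC391075 rose by 1.02 (0.48 in pair 1, 1.56 in pair 2), and LOC644936, annotated as a transcribed pseudogene on chromosome 5, rose by 0.96 (0.78 and 1.14). The file gives LOC391075 no other name, and a pseudogene's probe may also read its parent gene.

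The 4 genes called lower were RNU11, D2HGDH, SPC24 and the unnamed cluster HS.545976, and in none of them did the groups overlap. RNU11, the U11 small nuclear RNA of the minor spliceosome, had 8.72 and 7.95 in the combination arrays, against 9.66 and 8.90 in the 5-Aza-CdR arrays. It fell by 0.95 in each pair (SE 0.22, n = 2 pairs; limma adjusted p = 0.0459). D2HGDH, the mitochondrial enzyme that oxidises D-2-hydroxyglutarate, had 8.86 and 8.58 in the combination arrays, against 9.22 and 10.34 in the 5-Aza-CdR arrays. Its difference was -1.06, of which pair 1 gave -0.36 and pair 2 gave -1.76 (limma adjusted p = 0.0459). SPC24, a subunit of the NDC80 complex of the kinetochore, had 9.40 and 9.74 in the combination arrays, against 9.85 and 11.31 in the 5-Aza-CdR arrays, with pair differences of -0.45 and -1.57. HS.545976 had 9.35 and 9.13 in the combination arrays, against 10.01 and 10.57 in the 5-Aza-CdR arrays, with pair differences of -0.66 and -1.43. In the last 3 the 5-Aza-CdR array of replicate 2 was the highest of the 4, and SPC24 was no longer called with the gap trend removed (limma adjusted p = 0.193). Groups that do not overlap were found for 5 of the 21 genes called higher (0.85% of all genes) and for 4 of the 4 called lower (5.43% of all genes).

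The gene lists that follow yielded few calls or none. Metallothioneins and zinc genes, which bind and sense metal ions, had 10 of 11 members above 0 and a median of 0.39, of which pair 1 gave 0.05 and pair 2 gave 0.68, with 0 called. MT2A had 14.80 and 12.88 in the combination arrays, against 14.07 and 12.04 in the 5-Aza-CdR arrays, a difference of 0.79 with pairs of 0.74 and 0.84 (limma adjusted p = 0.167). Its transcription factor MTF1 differed by 0.77 through pair 2 alone (-0.09 and 1.63). The metallothionein median was 0.27 with the gap trend removed, and the list's median gap was 1.82.

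Antioxidant genes controlled by NRF2 had 23 of 28 members above 0 and a median of 0.21 (0.14 in pair 1, 0.29 in pair 2), with 0 called. Their median gap was 2.00, and the median with the gap trend removed was 0.12. NFE2L2, which encodes NRF2, had 10.52 and 7.30 in the combination arrays, against 9.72 and 6.80 in the 5-Aza-CdR arrays, a difference of 0.65 (limma adjusted p = 0.351). NQO1, a quinone reductase, differed by 0.51, with 0.53 in pair 1 and 0.49 in pair 2. With the gap trend removed NFE2L2 was at 0.36 and NQO1 at 0.27. Cytosolic ribosomal proteins had 49 of 61 members above 0 and a median of 0.19, but their median gap was 2.38 and the median with the gap trend removed was 0.01. Ascorbate transport and recycling genes had 7 of 13 members above 0, a median of 0.13 and 0 calls. Their median gap was 2.15, and the median with the gap trend removed was -0.03.

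Genes that write, read and erase DNA methylation had 9 of 19 members above 0 and a median of 0.00, with 0 called higher and 1 lower, D2HGDH, which the list holds as an enzyme that removes an inhibitor of the TET oxidases. DNMT1, the maintenance methyltransferase and the main target of decitabine, had 13.18 and 11.21 in the combination arrays, against 13.60 and 10.81 in the 5-Aza-CdR arrays. Its pair differences of -0.41 and 0.41 cancelled. UHRF1, which brings DNMT1 to replicated DNA, differed by 0.38, and the oxidase TET1 lay below the array medians and differed by -0.14. Genes for decitabine uptake and activation had 8 of 10 members above 0, a median of 0.14 and 0 calls. The nucleoside transporter SLC29A2 was the lowest of them, with 9.69 and 8.68 in the combination arrays, against 9.95 and 9.79 in the 5-Aza-CdR arrays, a difference of -0.68 (limma adjusted p = 0.345).

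Cancer-testis and germline genes, many of them silenced by promoter methylation in adult tissue, had 35 of 52 members above 0 and 0 called, with medians of -0.03 in pair 1 and 0.28 in pair 2. XAGE1A, already bright in both groups, had 12.04 and 12.81 in the combination arrays, against 12.84 and 13.06 in the 5-Aza-CdR arrays. CTCFL, a testis paralogue of CTCF, had 9.98 and 8.31 in the combination arrays, against 9.79 and 7.49 in the 5-Aza-CdR arrays. Of 17 genes silenced by promoter methylation in colon cancer 13 were above 0 and 0 were called. UCHL1, a ubiquitin hydrolase, was the highest of these, with 12.07 and 9.53 in the combination arrays, against 11.45 and 8.40 in the 5-Aza-CdR arrays, a difference of 0.88 (limma adjusted p = 0.089). RUNX3, a tumour suppressor transcription factor, differed by 0.79 in pair 1 and by -0.0002 in pair 2.

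Mitosis and kinetochore genes had 32 of 48 members above 0 and a median of 0.11, with 1 called lower (SPC24) and 0 higher. With the gap trend removed the median was -0.01. The spindle checkpoint kinase TTK differed by 0.50 and the kinetochore protein CENPF by -0.35, and neither was called. Of 23 targets of p53 10 were above 0 and 0 were called. Small nuclear and nucleolar RNAs had the lowest median of the lists at -0.27 (-0.39 in pair 1, -0.13 in pair 2), with 6 of 15 above 0 and RNU11 called lower. RNU1-5, a U1 RNA that takes part in 5′ splice site recognition, had 11.21 and 10.95 in the combination arrays, against 11.75 and 11.61 in the 5-Aza-CdR arrays, a difference of -0.60 (limma adjusted p = 0.405). RN7SK, which holds the elongation kinase P-TEFb inactive, had pair differences of -0.19 and 1.21. Some U RNAs, U1 among them, are multicopy genes with near-identical copies, so their symbols are uncertain. How well the arrays read small RNAs, RNU11 included, was not checked here.

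**Figure D4:**
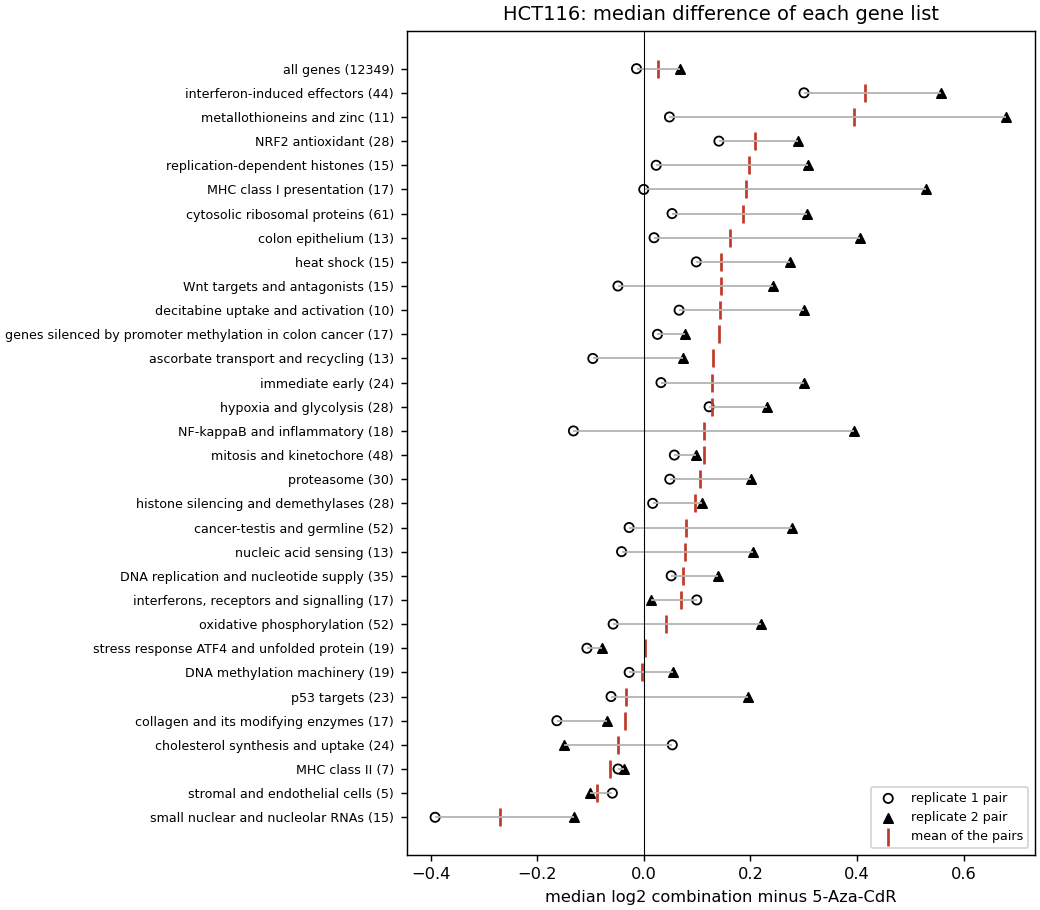
Median log2 difference of combination minus 5-Aza-CdR for each gene list with at least 5 members on all 4 arrays (number in brackets): open circles are pair 1, triangles pair 2, and red bars the median of the members' means over both pairs. Interferon-induced effectors have the highest median at 0.41, small nuclear and nucleolar RNAs the lowest at -0.27, and most triangles lie to the right of their circles.

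Large differences in 1 pair often did not recur in the other. In pair 1 28 genes were at least 2-fold higher, and 22 of them lay above 0 in pair 2. Of 6 genes at least 2-fold lower in pair 1, 2 lay below 0 in pair 2. In pair 2 181 genes were at least 2-fold higher, 107 of them above 0 in pair 1, and 88 were at least 2-fold lower, 65 of them below 0 in pair 1. Over all genes measured on the 4 arrays, 47.3% lay above 0 in pair 1 and 56.3% in pair 2. As examples chosen after their values were seen, ALDH1A3, a retinaldehyde dehydrogenase, differed by 1.24 in pair 1 and by -0.41 in pair 2, and SLC25A28, a mitochondrial iron importer, by 1.15 and -0.47. MIR1974 gave the lowest value of pair 1 at -2.53, with 8.93 and 13.94 in the combination arrays, against 11.46 and 13.18 in the 5-Aza-CdR arrays.

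The 4932 genes measured on the replicate 1 arrays alone sat near the low end of those arrays, with medians of 8.10 in combination 1 and 8.09 in 5-Aza-CdR 1. Of them 86 (1.74%) exceeded log2 9 in 5-Aza-CdR 1, beside 52.98% of the genes measured on all 4 arrays. With 1 pair there is no replicate check and no test. At least 2-fold higher levels were seen for 3 of them (0.0608%), and at least 2-fold lower levels for 0. These were LOC648695 (11.40 in combination 1, against 10.24 in 5-Aza-CdR 1), LOC399942 (11.56, against 10.43) and MEST, an imprinted gene of the hydrolase family (9.12, against 8.10). RRM2, the small subunit of ribonucleotide reductase, had 10.43 in combination 1, against 9.51 in 5-Aza-CdR 1, a difference of 0.92.

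Interferon genes measured in replicate 1 alone gave small values. RSAD2, the antiviral enzyme viperin, had 8.11 in combination 1, against 7.93 in 5-Aza-CdR 1. RIGI, the sensor of short double-stranded RNA listed as DDX58, had 8.45, against 8.30. JAK1, a kinase of the interferon receptors, had 8.85, against 8.52, and IFI16, a DNA sensor, had 7.94, against 8.36. The differences of these 4 genes were between -0.42 and 0.34, and at levels this near the low end of the array a change may not be detectable.

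The responses of HL60 and SNU398 were set beside that of HCT116 to ask whether the effector rises differ between lines. The median difference of the 44 effectors was 0.41 in HCT116, 0.02 in HL60 and 0.13 in SNU398, and 32 of the 44 had a higher difference in HCT116 than in HL60, as did 32 of the 44 against SNU398 (5676 and 6459 of all 12349 genes). The effectors named next were chosen because they were called or had the smallest p-values in HCT116. That choice favours larger differences in HCT116 than in the other lines. IFITM3 differed by 1.68 in HCT116, by 0.04 in HL60 and by 0.58 in SNU398. OAS1 differed by 1.36, by 0.07 and by 0.01 in the same order of lines. MX1 differed by 1.44 in HCT116, by 0.42 in HL60 and by 1.20 in SNU398, and IFI27 by 0.99, by -0.02 and by 1.29. IFIT3 differed by 0.77 in HCT116, by 0.94 in HL60 and by -0.04 in SNU398. The order of the lines was therefore not the same for each effector.

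The difference of responses was tested in limma on the 6 pair differences. It called 0 of 12349 genes for HCT116 minus HL60 (0%; 426 genes at an unadjusted p under 0.05, smallest adjusted p 0.89) and 0 for HCT116 minus SNU398 (0%; 600 genes at an unadjusted p under 0.05, smallest adjusted p 0.88). For IFITM3 the response of HCT116 minus that of HL60 was 1.64 ± 0.21 and minus that of SNU398 was 1.09 ± 0.21 (SE, 2 pairs a line), with limma adjusted p = 0.89 and 0.88. For OAS1 the same values were 1.30 ± 0.23 and 1.35 ± 0.23, and neither was called. Both genes had been picked by their HCT116 values, which favours a positive difference. The rises were called within HCT116 and are not shown to differ from the responses of the other lines.

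**Figure D5:**
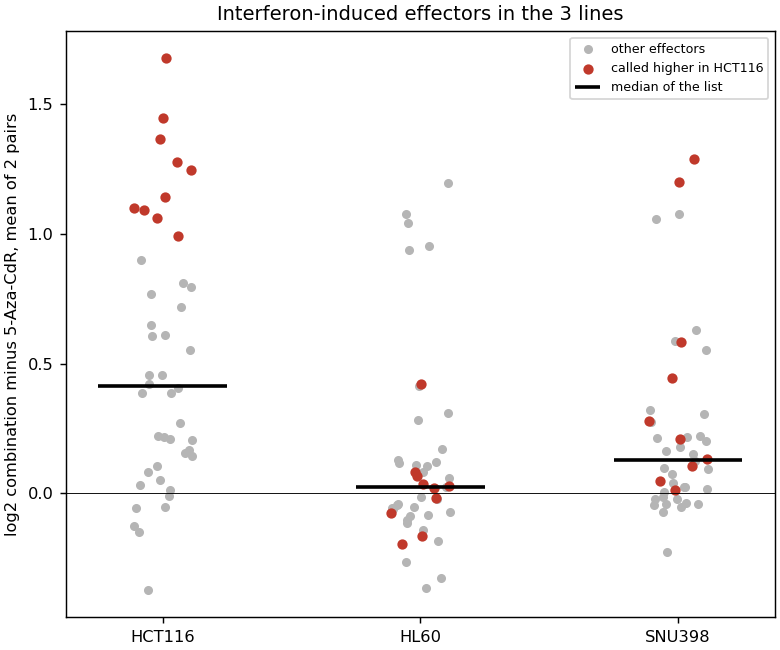
Mean log2 difference of combination minus 5-Aza-CdR (2 pairs) for each of the 44 interferon-induced effectors in HCT116, HL60 and SNU398, with black lines at the medians of 0.41, 0.02 and 0.13. The 10 effectors called higher in HCT116 (red) lie between 0.99 and 1.68 in HCT116, and MX1 and IFI27 are the highest of them in SNU398. The red genes were picked by their HCT116 values, so their high place in HCT116 follows from the choice.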

How the data were processed

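Total RNA from 3 cancer cell lines was measured on Illumina arrays. The authors deposited log2 values per gene symbol; limma is named, per the submitters' processing notes, without a version, and the sources used here give neither a background correction nor a scaling method. The unit was read as log2 from the values' range. A second deposited table of bead-level intensities was not used, because its column names match no sample label. Groups, pairs and replicate numbers come from the labels.

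Values of exactly 0 were set to missing. limma 3.58.1 (R 4.3.3) was fitted to the 4 HCT116 arrays with the replicate number as a block and moderated variances (prior 43.66 degrees of freedom, 1 residual), two-sided, with Benjamini-Hochberg adjustment over 12349 genes and a threshold of 0.05. The script was tested on simulated data. The number of arrays limits the precision.

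The pairing by replicate number was set for this report before the fits. Deviations of same-numbered arrays from their group means correlated across genes at 0.907 in HCT116, 0.909 in HL60 and 0.870 in SNU398. These correlations come from the same arrays as the calls, so they give no independent ground for the pairing. What the numbers stand for is not given in the labels.

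Members, the 33 gene lists and this pairing were chosen with earlier results of these data known. Of 1004 list genes 724 had a value on all 4 arrays. Named genes are the 15 largest called rises and falls, up to 4 further members of each list by smallest p plus its called members, all genes 2-fold apart in both pairs, DNA methylation enzymes, markers, the 10 largest differences each way in replicate 1 alone, and the smallest p-values between lines; others named were chosen after their values were seen. One called gene is not reported here. Of 17290 HCT116 symbols 13180 matched RefSeq names (GRCh38.p14). Alternatives were no block, 12 arrays, quantile normalization, centring, trend with robust variance, a level filter, each replicate left out, and a gap correction added later.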

Additional observations from a re-analysis of the deposited data

Results flagged for a closer look

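Each of 19 genes, chosen as effectors or for the smallest p between lines, was compared with HL60 and with SNU398. In 8 cases, pooled over both comparisons, both HCT116 pairs differed one way and both pairs of the other line the opposite way. Over all 12349 genes this pattern was found for 1099 genes against HL60 (8.90%) and for 2463 against SNU398 (19.9%). Each share is for a single line, so the pooled count cannot be set directly against it. The 19 genes were also chosen by their values in HCT116 or between lines. Whether the pattern is more frequent among them than among all genes was therefore not tested. HCT116 minus HL60 was 1.31 for LY6E, 1.20 for TAPBP, 1.29 for OASL, 1.14 for IFITM1 and -0.70 for NME3. HCT116 minus SNU398 was 1.52 for ISOC1, 0.85 for IFITM1 and -1.04 for NME3. TAPBP differed by 1.02 in HCT116 and by -0.18 in HL60, and ISOC1 by 1.27 in HCT116 and by -0.25 in SNU398. NME3, of the nucleoside diphosphate kinase family, differed by -0.47 in HCT116, by 0.24 in HL60 and by 0.58 in SNU398. None of these differences was called by limma's test between lines (adjusted p = 0.96 against HL60 and 0.88 against SNU398).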

How the results depend on the processing

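The 21 higher and 4 lower calls moved to 0 and 0 without the replicate block, with the 4 HCT116 arrays or with 12 arrays. They also moved to 0 and 0 after quantile normalization and with the replicate block in 3 lines over 12 arrays. The settings without replicate 1 or without replicate 2 used that block fit over 3 lines. They pool the spread from the other lines' pairs and assume that the lone HCT116 pair varies like those. Because that fit called 0 genes with both HCT116 pairs kept, they cannot show whether the calls depend on both replicates. With genes of mean log2 under 9 left out, 1 gene was called higher and 0 lower, and the effectors' median was 0.61. Removing the gap trend, an alternative chosen after seeing the data, gave 46 higher and 3 lower calls, of which 24 were shared with the 25. At extreme gaps this correction itself shifted genes into a call. The effectors' median was above 0 in every setting run, but several settings could not move it. It was 0.41 without a block, with the block in 3 lines and with trend and robust variance, which leave each gene's difference unchanged. Without replicate 2 it was 0.30 and without replicate 1 it was 0.56, which are the medians of pair 1 and pair 2. After quantile normalization it was 0.39, after centring 0.42 and with the gap trend removed 0.40. The cause of the shifts in the calls was not tested. With trend and robust variance 16 genes were called higher and 4 lower, and IFITM2, NFKB1, IFI27, FAM46A, LOC391075 and LOC644936 lost their call (limma adjusted p between 0.0529 and 0.0898); centring gave 24 higher and 4 lower.

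Of 103 named genes the 24 called kept their direction in every setting in which they were tested, but most settings could not turn it. The settings without a block, with the block in 3 lines, with trend and robust variance or with the level filter leave a gene's difference unchanged. Leaving out 1 replicate returns the other pair's difference, and both pairs of each called gene had the same sign. With genes of mean log2 under 9 left out, 5 of the called genes (OAS1, SAMD9, BLOC1S1, OASL and RNU11) were not tested. Directions that turned belonged to genes that were not called. DNMT1 was at 0.0276 after quantile normalization and 0.0013 after centring, and with the gap trend removed OAS3 was at -0.0903 and SFN, a p53 target, at 0.0014. Over the settings that leave out 1 replicate, OAS2 ranged between -0.24 and 0.31, OAS3 between -0.0341 and 0.24, TAP2 between -0.0141 and 0.98, NFKBIZ between -0.0374 and 0.87, CCL20 between -0.22 and 1.07 and RUNX3 between -0.0002 and 0.79. DNMT1 ranged between -0.41 and 0.41, DNMT3B between -0.0275 and 0.0552, TXNRD1 between -0.0435 and 0.54, MTF1 between -0.0936 and 1.63, RN7SK between -0.19 and 1.21, RPS15 between -0.015 and 1.13, KRT8 between -0.58 and 0.68 and CDX2 between -0.0882 and 0.11. ALDH1A3 ranged between -0.41 and 1.24, SLC25A28 between -0.47 and 1.15 and MIR1974 between -2.53 and 0.76.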

Other observations

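Exact zeros followed the replicate and not the treatment in HCT116. Each replicate 2 array, combination and 5-Aza-CdR alike, listed 4938 symbols at 0, and each replicate 1 array listed 9. Those 9 symbols were BATF2, CCRL2, CD38, GBP2, ICAM1, IL15RA, IL2RB, TMEM140 and TNFAIP6, several of which are known as genes induced by interferon or inflammatory signals. BATF2, CCRL2 and GBP2 had values on the replicate 2 arrays: GBP2, an interferon-induced GTPase, had 8.96 in combination 2, against 8.77 in 5-Aza-CdR 2, and CCRL2, a chemokine-binding receptor, had 7.16, against 6.50. The other 6 were at 0 on all 4 HCT116 arrays, so their response could not be measured here. Among symbols that begin with LOC or HS, which mark unnamed loci and sequence clusters, the share was 42.1% of the genes measured in replicate 1 alone and 14.7% of those measured on all 4 arrays.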
